A study of Homo sapiens with 6 samples.

Results

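The regions described here are clustered p63 binding peaks of ME-180 cells, a squamous cervical carcinoma line, on chromosomes other than 17, 19 and 22. A peak was taken as clustered when another peak lay less than 5000 bp away, measured as the start of the later peak minus the end of the earlier one. By this rule 1322 of the 5489 peaks on these 21 chromosomes were clustered, of 6466 peaks in the whole list, and they formed 637 runs. The members were chosen by their spacing, so run sizes and gaps are given as a description and were not tested. The study covers 6 samples from 2 human cervical carcinoma lines, each sample being 1 library. The peak list rests on 1 immunoprecipitation of ME-180 cells with an antibody against p63, with an input of the same line taken without antibody. The RNA libraries came from ME-180 cells labelled control (plko), ME-180 cells labelled knockdown (shp63), SiHa cells labelled vector and SiHa cells labelled overexpression (p63_OE). SiHa is the other line. The labels give no genotype beyond these names for any library, and all 6 carry the same passage range. No group had a replicate.

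p63, the product of TP63, belongs with p53 and p73 to one family of DNA-binding regulators, and it maintains the basal layer of stratified and squamous epithelia. It binds DNA as a tetramer through a response element made of paired half-sites, often at enhancers far from gene starts, and several bound sites can lie side by side at one regulatory region. A chromatin immunoprecipitation peak marks a stretch where fragments recovered with the antibody pile up. The list held positions only, without a height, a fold or a p-value, so strongly and weakly bound peaks cannot be told apart here.

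Of the 34 runs on chromosome 14 and 23 on chromosome 15, 2 and 5 form the small RNA stretches described below. These stretches lie in imprinted regions of 14q32 and 15q11-q13, which carry long tandem arrays of small RNA genes expressed from 1 parental chromosome. RefSeq's GRCh38.p14 table lists 30 SNORD116 and 48 SNORD115 genes on chromosome 15, which make box C/D small nucleolar RNAs, and 9 SNORD113 and 31 SNORD114 genes on chromosome 14. By their order in the same table, 40 microRNA hairpins run from MIR379 to MIR656 on chromosome 14. They give 69 distinct mature microRNAs with 59 distinct seeds, the bases 2 to 8 that pair with targets. Of these seeds, 9 were shared, by 19 mature microRNAs in all, and 1 was shared by 3 of them. The mature sequences of that group and of 2 smaller groups are shown to make the repeated make-up of this array visible. They are RefSeq sequences (GRCh38.p14), written 5′ to 3′ with the seed in capitals.
hsa-miR-323b-5p: aGGUUGUCcguggugaguucgca
hsa-miR-410-5p: aGGUUGUCugugaugaguucg
hsa-miR-494-5p: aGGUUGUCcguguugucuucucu
hsa-miR-376a-3p: aUCAUAGAggaaaauccacgu
hsa-miR-376b-3p: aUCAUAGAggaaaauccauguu
hsa-miR-154-3p: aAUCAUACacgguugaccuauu
hsa-miR-487a-3p: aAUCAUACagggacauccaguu
The first 3 lines form 1 group, the next 2 another and the last 2 the remaining one. The peaks are in hg19 and the RefSeq table is in another build, so which small RNA gene a given peak covers was not determined, and runs are named by position.

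Most runs were pairs. Of the 637 runs, 595 had 2 peaks (93.4%), 37 had 3, 4 had 4 and 1 had 5. The runs spanned 400 to 11650 bp from the first start to the last end, with a median of 1050 bp. At the median run, 46.7% of the span lay inside peaks. The 42 runs of 3 or more peaks held 132 of the 1322 members, and their median span was 1850 bp. Chromosomes 5 and 14 had 5 runs of this size each, more than any other chromosome of the rule.

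Within runs, neighbouring peaks were close. The 685 gaps had a median of 501 bp, and their quartiles were 251 and 851 bp. A gap of 251 bp was the most common, with 49 cases. Starts in the list fall on multiples of 50 bp for all 6466 peaks, so gaps take steps of 50 bp, and the smallest gap of 51 bp, seen 17 times, stands for a single step left between 2 peaks. Of the gaps, 549 (80.1%) were under 1000 bp and 641 (93.6%) under 2000 bp. The remaining 44 gaps were thinly and evenly spread. There were 92 gaps from 1000 to under 2000 bp, then 11, 17 and 16 in the next steps of 1000 bp. Beyond the limit of the rule the counts per 1000 bp were of the same size, 14, 18, 17, 14 and 12 from 5000 to 10000 bp. The limit of 5000 bp falls in this low, flat part of the distribution.

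**Figure D1:**
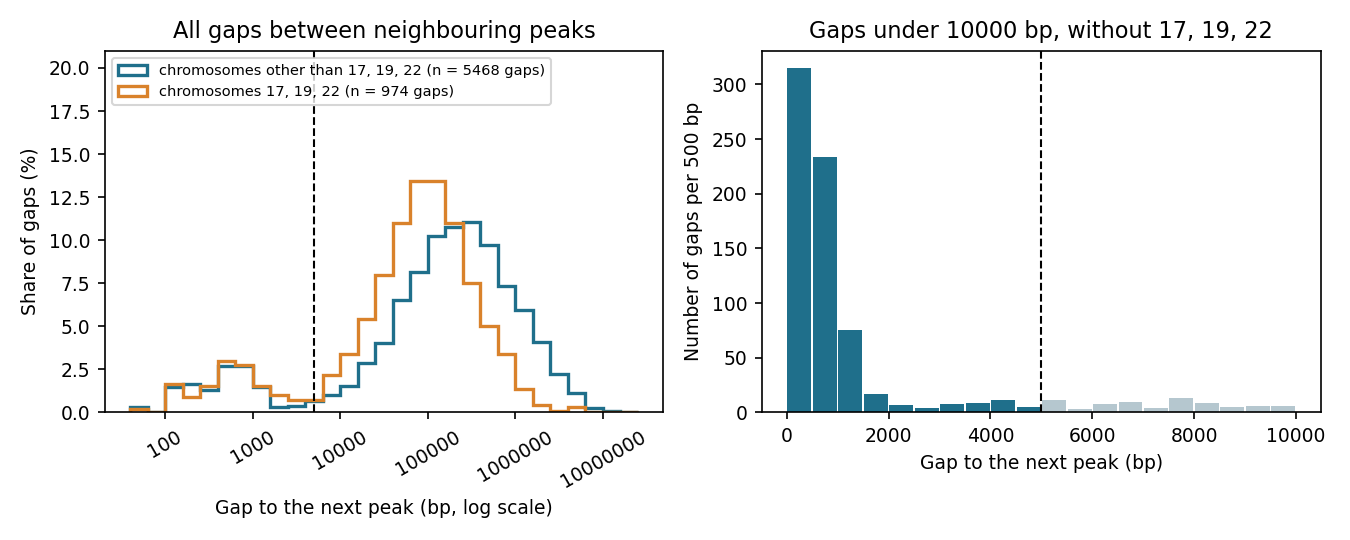
Gaps between neighbouring p63 peaks. Left, share of all gaps (%) by size (bp, log scale) on chromosomes other than 17, 19 and 22 (blue) and on those 3 (orange), with the 5000 bp limit dashed. Right, number of gaps per 500 bp on the former chromosomes, with grey bars beyond the limit. Both sets have a smaller group of gaps around 501 and 576 bp and a larger one of wide gaps, and the counts from 2000 to 10000 bp are low and flat.

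Few peaks lay close to the limit on either side. Just inside it were the pairs chr7:150929600-150934799 with a gap of 4901 bp, chr7:130126350-130131999 and chr10:79788200-79793699 with 4851 bp each, and chr5:180231550-180236849 with 4751 bp. Just outside, peaks on chromosome 11 (6255050 to 6255399 and 6260400 to 6260599) were 5001 bp apart, and peaks on chromosome 2 (27712350 to 27712599 and 27717650 to 27717899) were 5051 bp apart. On chromosome 15, an isolated peak at chr15:25303800-25304149 missed the run of 4 peaks described below by a gap of 5251 bp. At the other end, the 3 longest of the pairs with a gap of 51 bp were chr9:107266350-107267049, with peaks of 300 and 350 bp, chr14:24977150-24977799, with 400 and 200 bp, and chr20:2451850-2452499, with 150 and 450 bp. In each of these 3, over 92% of the span lay inside the peaks, at 92.9%, 92.3% and 92.3%.

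The share of peaks that were clustered varied among chromosomes. It was lowest on chromosome 3 (59 of 340 peaks, 17.4%), chromosome 20 (37 of 188, 19.7%) and chromosome 10 (48 of 241, 19.9%). It was highest on chromosome 21 (35 of 102, 34.3%), chromosome 14 (76 of 230, 33.0%) and chromosome 18 (35 of 106, 33.0%), leaving aside chromosome Y, where 4 of only 6 peaks were clustered. Chromosome 15, with the longest chain of peaks by number, had 50 of 226 peaks clustered (22.1%), a middling share. Over all chromosomes of the rule the share was 24.1%. On the gene-dense chromosomes 17, 19 and 22 it was 26.0% (254 of 977 peaks), with 20.8%, 29.8% and 26.1% in turn, all within the range of the other chromosomes. Peaks of 1 run are not independent and come from 1 library, so these shares were not tested against each other.

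**Figure D2:**
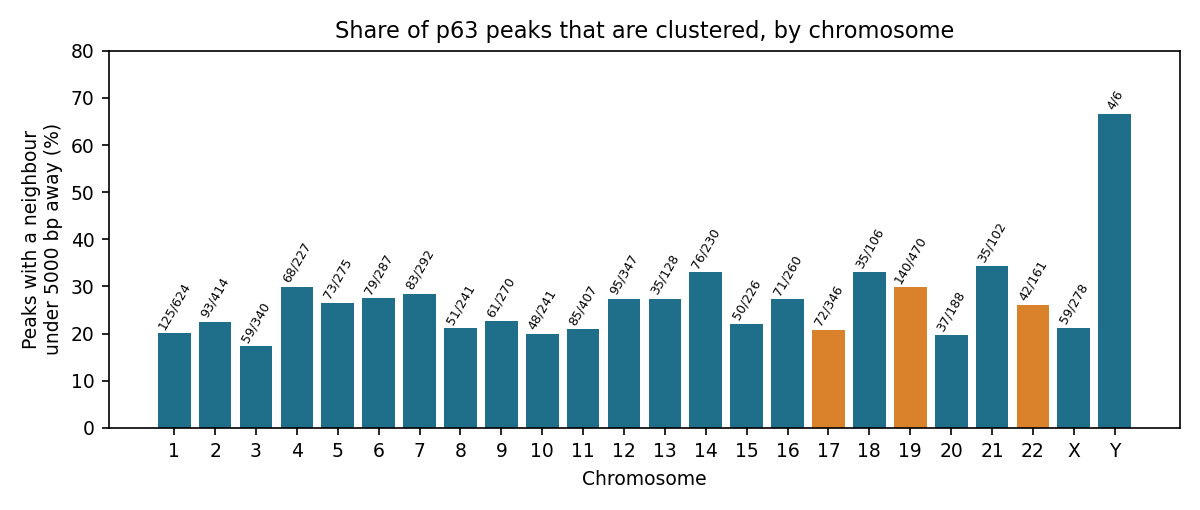
Share of p63 peaks with a neighbour under 5000 bp away (%), by chromosome, with chromosomes 17, 19 and 22 in orange and the clustered and total peak numbers above each bar. The bars run from 17.4% on chromosome 3 to 34.3% on chromosome 21, apart from chromosome Y with 6 peaks.

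Gaps of 5000 bp or more, which separate runs and isolated peaks, were wider than on the gene-dense chromosomes, while gaps within runs were of similar size. The median of the wide gaps was 235101 bp on the chromosomes of the rule and 97451 bp on chromosomes 17, 19 and 22. Within runs it was 501 bp against 576 bp, and 80.1% against 73.1% of gaps were under 1000 bp. Runs of 3 or more peaks made up 6.59% of runs on the chromosomes of the rule and 11.7% (14 of 120) on the other 3, where none had more than 3 peaks.

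Width was not used to choose the members. Clustered peaks had a median width of 200 bp and isolated peaks of the same chromosomes one of 250 bp, which is a single 50 bp step. Their means were 237 bp (SD 85.3, n = 1322 peaks) and 241 bp (SD 87.8, n = 4167 peaks). Peaks of 1 library are not replicates, so the difference was not tested. Peaks of 150 bp or less made up 20.2% of clustered and 18.9% of isolated peaks, and peaks of 400 bp or more 6.73% and 7.34%. Clustered peaks on chromosomes 17, 19 and 22 had a mean of 237 bp (SD 82.4, n = 254 peaks).

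**Figure D3:**
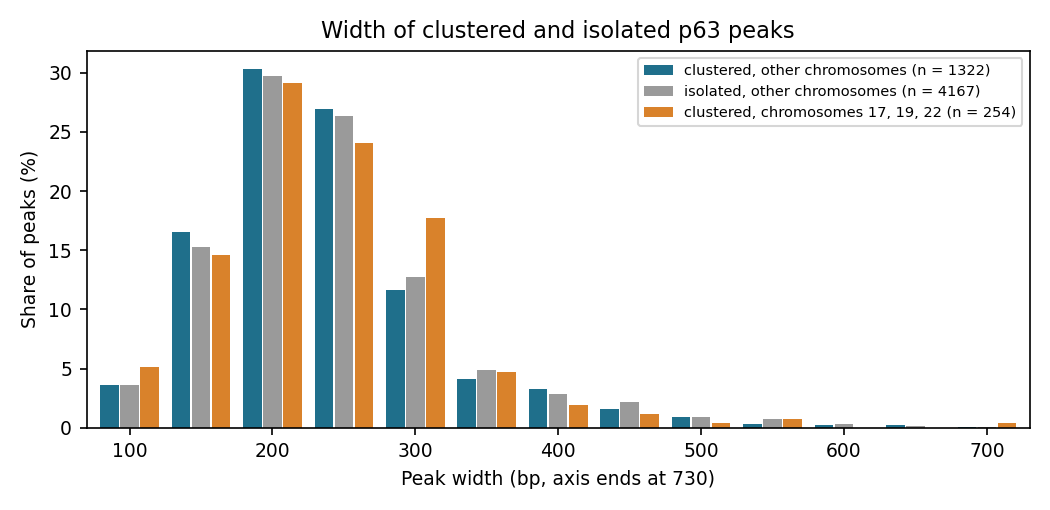
Peak widths (bp, in steps of 50) as a share of each set (%), for clustered (blue, n = 1322) and isolated (grey, n = 4167) peaks on chromosomes other than 17, 19 and 22 and clustered peaks on those 3 (orange, n = 254). All 3 sets have their highest bar at 200 bp.

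The peaks of a pair were seldom very unequal. In 134 of 595 pairs both peaks had the same width, in 210 the first along the chromosome was wider and in 251 the second. The median difference was 50 bp, and in 77 pairs it was 200 bp or more. By gap, the mean width was 232 bp in the 85 pairs with a gap under 200 bp, 238 bp in the 181 pairs from 200 to under 500 bp and 235 bp in the 215 pairs from 500 to under 1000 bp. It was 235 bp in the 84 pairs from 1000 to under 2000 bp and 258 bp in the 30 pairs at 2000 bp or more, without a steady order. From centre to centre, the peaks of a pair lay 775 bp apart at the median, with quartiles of 500 and 1100 bp. The most unequal pairs differed by 550 bp: chr4:3533250-3534399 (650 and 100 bp, gap 401 bp), chr11:43918400-43919649 (250 and 800 bp, gap 201 bp) and chr11:71791100-71792449 (850 and 300 bp, gap 201 bp). The last of these holds the widest member of all. In runs of 3 or more, the 48 inner peaks had a mean width of 234 bp and the 84 outer peaks one of 245 bp.

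Runs of 3 or more peaks ranged from compact to spread. In 26 of the 42, every gap was under 1000 bp, while 12 had a gap of 2000 bp or more and the rest lay between. The run of 4 peaks at chr12:95466500-95468449 was the most compact of those with more than 3, with gaps of 251, 501 and 201 bp and 51.3% of its 1950 bp inside peaks. On chromosome 14, the runs at chr14:50559000-50560249 (gaps 401 and 151 bp), chr14:74485600-74486699 (451 and 201 bp, 3 peaks of 150 bp each) and chr14:91579350-91580449 (251 and 201 bp) were of the same compact kind. The 12 spread runs included the 5 peaks of chromosome 14 and 2 runs of chromosome 15 described next. Among the others, chr10:22605150-22611099 had gaps of 4101 and 1151 bp, and chr4:109088300-109094049 had gaps of 1701 and 3051 bp around a middle peak of 500 bp. The run chr3:71773750-71778899 had 3 peaks of 200 bp with gaps of 951 and 3601 bp, and chr20:62711050-62715849 had gaps of 151 and 4001 bp. At chr14:68282650-68287249, 3 peaks with gaps of 101 and 451 bp were followed by the fourth after 3001 bp.

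The largest run lay in the chromosome 14 small RNA region. This holds for the limit of 5000 bp: at 2000 bp it breaks apart, and the largest run is then the 4 peaks at chr12:95466500-95468449. At chr14:101521350-101532999, 5 peaks spanned 11650 bp, of which 10.3% lay inside peaks. They were 300, 250, 250, 150 and 250 bp wide, and the gaps between them were 3601, 2001, 4251 and 601 bp. This spacing was unlike that of the typical run, since its median gap of 2801 bp stood above the 501 bp of all members. A pair at chr14:101511550-101515949, with peaks of 250 bp each and a gap of 3901 bp, ended 5401 bp before the run. Together these 7 members covered a stretch of 21450 bp. Upstream of it, isolated peaks lay at chr14:101490950-101491199, chr14:101443250-101443399 and chr14:101431850-101432049, and the next peak before those was 805601 bp away.

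The chromosome 15 small RNA region held the chain with the most peaks. Chained at a limit of 60000 bp, which was set after the data were seen to span its widest gap of 55201 bp, the peaks there outnumbered those of any other chain on the chromosomes of the rule. From chr15:25226450 to 25486449, 24 peaks lay within 260000 bp, with 125601 bp free of peaks before them and 168201 bp after. Of these, 14 were members in 5 runs and 10 were isolated by the rule, so the rule takes only part of the stretch. The median gap among all 24 was 7651 bp. Their density was 9.23 peaks per 100000 bp, against 32.6 and 42.4 in the shorter chromosome 14 and 8 stretches. These 3 values run from the first to the last member of each stretch, which leaves out isolated peaks beyond the members. At the limit of 60000 bp the other 2 chains were longer. That of chromosome 14 ran from 101431850 to 101532999 with 10 peaks, and that of chromosome 8 from 145012650 to 145050799 with 8. The density ranking holds only for the ends set by members. The run at chr15:25226450-25231949 opened with a peak of 700 bp, exceeded in width by only 2 members, both on chromosome 11, then a peak of 300 bp after 101 bp and one of 250 bp after 4151 bp. A pair of 250 and 200 bp followed at chr15:25287150-25287999 with a gap of 401 bp. The run at chr15:25309400-25315499 had 4 peaks of 250, 200, 350 and 550 bp at gaps of 1301, 2001 and 1451 bp. Its gaps were the most even of the runs with more than 3 peaks, the largest 1.54 times the smallest. The run at chr15:25331950-25333899 had 3 peaks of 300, 200 and 250 bp at gaps of 451 and 751 bp, and the last pair, of 150 and 250 bp, lay at chr15:25484400-25486449 with a gap of 1651 bp. The isolated peaks between the runs were 150 to 400 bp wide. The 24 peaks, clustered and isolated together, had a mean width of 283 bp and a median of 250 bp, with a range of 150 to 700 bp. Over the chromosomes of the rule, the mean was 237 bp for clustered and 241 bp for isolated peaks, with medians of 200 and 250 bp.

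Another stretch with 7 members, singled out after its values were seen, lay on chromosome 8. Runs of 3 and 4 peaks at chr8:145012650-145016249 and chr8:145025350-145029149 were 9101 bp apart and together spanned 16500 bp. The gaps of the first were 751 and 2151 bp, and those of the second 2351, 201 and 101 bp. The second run held peaks of 250, 450, 150 and 300 bp. When peaks were chained with a limit of 20000 bp, a limit chosen after the data were seen, the stretches of chromosomes 15, 14 and 8 were the 3 largest chains, with 14, 7 and 7 peaks. Only 6 chains on the chromosomes of the rule had 5 peaks or more. With limits of 10000 and 50000 bp, the same 3 places gave the largest chains, with 8, 7 and 7 peaks and with 21, 10 and 8. At 60000 bp they had 24, 10 and 8, and a chain on chromosome 1 also had 8. Of 4120 windows of 100000 bp with a peak, 8 held 6 or more, and 3 of these 8 were the neighbouring windows of the chromosome 15 stretch, with 6, 11 and 7 peaks. Over all 637 runs, the nearest other run lay at a median of 1088201 bp, and 16 runs had another within 20000 bp.

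**Figure D4:**
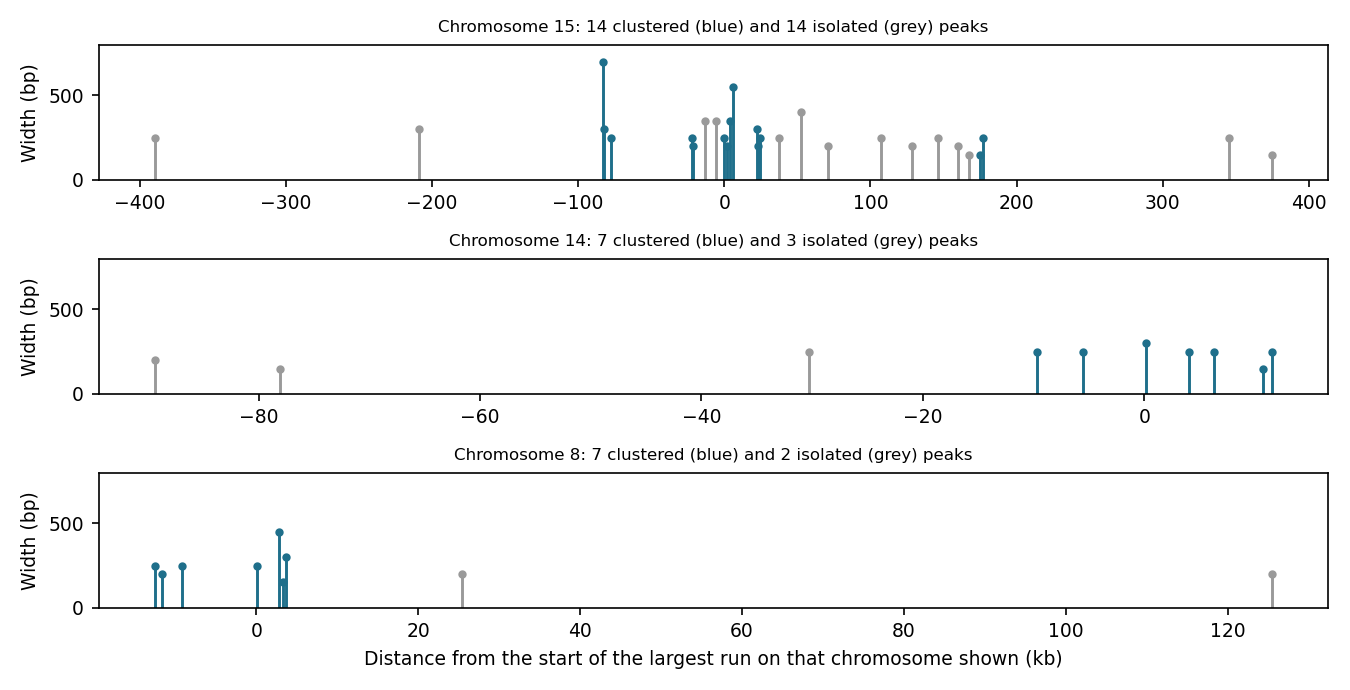
Peaks of the chromosome 15, 14 and 8 stretches, as width (bp) against distance (kb) from the start of the largest run shown on that chromosome. Blue marks clustered and grey isolated peaks. On chromosome 15, 14 clustered and 14 isolated peaks are drawn, including 4 isolated peaks beyond the ends of the 24-peak stretch, and the tallest is 700 bp.

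RNA counts of genes in these imprinted regions were sparse in the tables used here, which hold messenger RNA transcripts and lack rows for SNRPN, MEG3, DLK1 and the small RNA genes themselves. The absence of a row does not show that a gene was silent. In ME-180, SNURF, which shares its transcripts with SNRPN at the imprinted chromosome 15 locus, had 64 counts in the control (exact Poisson 95% interval 49.3 to 81.7, counting error only) and 0 in the library labelled knockdown (0 to 3.69). With 3 counts put in place of the 0, it was 19.8-fold lower. This figure is no lower bound, since it leaves out counting error and the interval of 0 reaches 3.69. RTL1, a retrotransposon-derived imprinted gene of 14q32, had 14 counts (7.65 to 23.5) in the control and 0 in the other library. It was 4.34-fold lower with the same 3 counts, likewise without counting error. With a pseudocount of 5 CPM in place of 1, RTL1 was no longer called. UBE3A, a ubiquitin ligase that borders the chromosome 15 small RNA arrays, had 826 counts (771 to 884) and 929 (870 to 991), which gave 0.27 as log2 ratio of counts scaled to a total of 1000000 (CPM) plus 1. Of the 3 genes with a row, 2 were thus lower by the rule of a 2-fold ratio with at least 1 CPM in a library. Over all 6783 genes tested, 20.6% were lower by this rule and 28.2% higher, together 48.9%, and the median log2 ratio was 0.28, close to that of UBE3A. In SiHa, UBE3A had 1216 counts with the vector (1149 to 1286) and 1202 with overexpression (1135 to 1272), and was not called. Of 6996 genes in SiHa, 0.572% were higher and 0.743% lower, together 1.32%. Host genes of small nucleolar RNAs elsewhere in the genome had few rows. For RPL7A, a ribosomal protein gene, the log2 ratio was -0.34 in ME-180 (-0.63 after scaling by trimmed means) and -0.26 in SiHa. EEF2, a translation factor, had -0.21 in SiHa and EIF4A2, a helicase of translation initiation, 0.24, and neither has a row in the ME-180 table. With 1 library per group these ratios compare libraries, and no test of the conditions was possible.

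The ME-180 control library carried the squamous markers that had a row, and also the simple epithelial keratins KRT8 and KRT18. The 4 RNA tables' columns summed to between 10046579 and 14207637 counts, which are totals of the rows present. Of the 10 squamous markers, 5 had a row in ME-180, and all 5 were high in the control, from 520 CPM for TP63 to 62894 CPM for KRT5, a basal keratin. All 5 were lower in the library labelled knockdown, TP63 at 6 counts against 5619. Over all 6783 genes tested, 20.6% were lower by the 2-fold rule. The fall was not limited to squamous markers. Of the 3 simple epithelial markers tested, 2 were lower and 0 higher, KRT8 at 220 counts against 20597 and KRT18 at 1094 against 8678. Of the 2 fibroblast markers tested, 1 was lower and 1 higher, and of the 5 neuron markers 2 were lower and 2 higher. TP63 counts in SiHa were 7 for the vector library and 179 for the overexpression library. In the ME-180 control, the 4 leukocyte markers with a row had 0 to 13 counts and the neuron markers 3 to 367. The fibroblast markers had 2 to 1373 counts there, COL1A1 being the highest. Of the simple epithelial markers with a row, KRT8 had 20597 counts (1906 CPM), KRT18 8678 (803 CPM) and MUC1 14. KRT8 and KRT18 thus stood above TP63 and below the other squamous markers with a row.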

How the data were processed

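ME-180 cells gave the p63 immunoprecipitation and its input, and ME-180 and SiHa cells gave 4 RNA libraries. Per the submitters' processing notes, the build was hg19 and TopHat, Cufflinks and DESeq2 were used, without roles or versions. For the peak caller, strand setting and counting method, the sources used here give no name. The authors deposited 1 list of peak positions without a score, in which 1 stray header line was skipped, and whole-number counts per RefSeq transcript. The authors' deposited log2 fold changes and p-values were not used. In Python 3.11.15 with pandas 2.3.3, peaks were sorted by start and joined into runs at gaps under 5000 bp. The 10 runs with the most peaks, runs of 3 or more on chromosomes 14 and 15, and the 3 closest and 3 widest pairs were named, with ties in peak number or gap broken by longer span. The other runs named (the run of 3 peaks on chromosome 8, the pairs beside the chromosome 14 and 15 runs, the most unequal pairs) were chosen after their values were seen. Counts were scaled to 1000000 (CPM) and of several transcripts of a gene, the one with most CPM over both libraries stood for it. Names replaced by a date were restored through RefSeq identifiers (32 and 31 rows). One gene of the small RNA host list is not reported here. Trimmed means came from edgeR 4.0.16. The run finder and the 2-fold rule were tested on simulated data. Members and lists were chosen with earlier results of these data known. Depth of the immunoprecipitation is unknown, which leaves the precision of peak calls unknown, and whether libraries came from separate cultures is not stated.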

Additional observations from a re-analysis of the deposited data

How the results depend on the processing

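Leaving out peaks narrower than the lower quartile of width (200 bp) lowered the clustered peaks from 1322 to 865 and the runs from 637 to 418. A limit of 10000 bp raised the largest run from 5 to 8 peaks, on chromosome 15, and one of 2000 bp lowered it to 4, on chromosome 12. The clustered share of 24.1% was 22.8% at 2000 bp, 26.3% at 10000 bp, 19.5% without narrow peaks and 21.1% after merging peaks under 200 bp apart. On chromosomes 17, 19 and 22 the 26.0% became 23.2%, 29.7%, 21.9% and 23.0% in the same order, above the other chromosomes each time. With a pseudocount of 5 CPM, 0 instead of 1 gene of the 14q32 list was called in ME-180. Scaling by trimmed means, which moved the median of all ME-180 genes from 0.28 to 0.00, put UBE3A at -0.01 and RPL7A at -0.63. Without the chromosome 14 and 15 stretches, an alternative added after the data were seen, 1301 peaks in 630 runs remained clustered, the largest with 4 peaks. The other settings left these values within 1.5 times for counts, 50 bp for widths and the 95% binomial interval for shares. That interval treats peaks as independent, which peaks of 1 run are not. It served only as a limit for calling a share moved and does not measure its precision. The 50 bp difference in median width between clustered and isolated peaks was not kept throughout. Both medians were 250 bp after merging peaks under 200 bp apart, and also without narrow peaks. No paired analysis was possible because every group had 1 library.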

Other observations

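Chromosome Y held 6 peaks, of which 4 were clustered. ME-180 is a cervical carcinoma line and so of female origin. These positions are therefore not read here as p63 bound to a Y chromosome, though the 4 stay among the 1322 members. The pair at chrY:2368400-2368799 and chrY:2369350-2369549 has a counterpart on chromosome X: shifted by 50000 bp, both peaks overlap the pair at chrX:2418250-2418499 and chrX:2419300-2419549. The ends of X and Y share a pseudoautosomal sequence. The Y peaks were 400 and 200 bp wide and the X peaks 250 bp each. The sources used here do not state how reads with several matches were placed. The other Y pair, at chrY:9301650-9301749 and chrY:9304350-9304449, has peaks of 100 bp each.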
